A study of Sus scrofa with 36 samples.

Results

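The ligands NRG1, HBEGF and AREG and the receptors ERBB2, ERBB3, ERBB4 and EGFR are 7 genes of neuregulin and epidermal growth factor (EGF) signalling, and were followed here through infarcted and sham-operated pig hearts. They were chosen by gene symbol and are 7 of the 25880 genes in the count table. ERBB receptors are tyrosine kinases at the cell surface that act in pairs. NRG1 binds ERBB3 and ERBB4, HBEGF binds EGFR and ERBB4, and AREG binds EGFR. ERBB2 has no known ligand of its own and serves as the preferred partner of the others, and ERBB3 has little kinase activity. In the heart, neuregulin made by endothelium signals to ERBB4 and ERBB2 on cardiomyocytes, and in mice this pathway is known for its part in the growth and division of cardiomyocytes around birth.

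The hearts came from 24 Yorkshire-landrace pigs, 12 with permanent ligation of branches of the left anterior descending and left circumflex coronary arteries and 12 with sham surgery. The operation took place on day 2 (Young) or day 14 of age (Old). Hearts were collected 1 day (Early) or 7 days (Late) afterwards, which made Young Early, Young Late, Old Early and Old Late pigs 3, 9, 15 and 21 days old at harvest. Infarcted hearts were sampled in the infarct zone (IZ) and in the border zone (BZ), so that these libraries come in pairs from 1 pig, and sham-operated hearts (Sham) in the front wall of the left ventricle. There were 12 groups of 3 libraries, 36 in all. An analgesic and an antibiotic were given to every pig after surgery.

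Library totals ran between 8.11 M and 39.79 M counts, with a median of 22.6 M, and the lowest was that of Young Late Sham replicate 2. Young Early BZ replicate 2 stood apart from its group, with a mean rank correlation of 0.884 with the other BZ libraries of that age, against a median of 0.977 over all libraries with their own groups. Of 15 cardiomyocyte marker genes, 11 were in the table and all 11 had counts in all 36 libraries. In IZ the summed level of these 11 markers was 33620 to 56050, 67290 to 90970, 31520 to 52160 and 25660 to 39330 CPM (counts scaled to library size) at 3, 9, 15 and 21 days of age, against 117700 to 138800, 92950 to 132300, 86440 to 97780 and 95600 to 108000 CPM in Sham. Old Late libraries were all prepared in batch 3, Young Early in batch 1 and Old Early in batch 2. Each contrast with Sham at these ages lies within 1 batch. Young Late had 1 library of each group in batch 1 and 2 in batch 2, so that a fit with a batch term can separate batches 1 and 2 from age, while batch 3 and Old Late cannot be told apart.

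Levels are CPM with TMM scaling, a correction for differences in composition between libraries. Tests are edgeR's quasi-likelihood tests over 14537 genes, and a gene was called, and is said to have risen or fallen, at a Benjamini-Hochberg adjusted p under 0.05. Changes are log2 fold changes ± SE with n = 3 libraries per group. All 7 genes passed the filter on low counts.

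Per kb of exon, the level over all 36 libraries was highest for ERBB2 (11.9 CPM per kb), followed by HBEGF (3.94), ERBB3 (0.954), EGFR (0.502), ERBB4 (0.343), NRG1 (0.174) and AREG (0.0985). ERBB2 was above HBEGF in 35 of 36 libraries, HBEGF above ERBB3 in 34 and ERBB3 above EGFR in 33. The lower neighbours were less separated: EGFR was above ERBB4 in 25 libraries, ERBB4 above NRG1 in 25, and NRG1 above AREG in 22. ERBB2 made up 86.1% of the summed length-scaled level of the 4 receptors on average, with 67.8% in the lowest library, an Old Late IZ library, and 95.5% in the highest. Over the 12 group means NRG1 had the widest span, 131-fold between the highest and the lowest, then AREG with 75.3-fold, EGFR with 6.37-fold, ERBB4 with 6.12-fold, HBEGF with 5.52-fold, ERBB2 with 2.47-fold and ERBB3 with 2.03-fold. The means of NRG1 and AREG in some sham groups rest on 1 or 2 counts.

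In IZ against Sham, 2 of the 7 genes were called at 3 days of age (26.4% of all genes tested), 4 at 9 days (30.4% of all genes), 2 at 15 days (32.9%) and 5 at 21 days (47.5%). In BZ against Sham, 0 of 7 were called at 3 days (0.894% of all genes), 3 at 9 days (14.7%), 2 at 15 days (21.2%) and 3 at 21 days (38.2%). The members' share lay near that of all genes at 3 and 15 days in IZ and at 3, 15 and 21 days in BZ. With 7 members, all of these counts and the overlap counts that follow are a description. At 3, 9, 15 and 21 days, IZ and Sham libraries did not overlap for 4, 5, 4 and 5 of the 7 members (46.2%, 47.8%, 53.3% and 61.6% of all genes), and BZ and Sham libraries for 2, 4, 4 and 5 (14.3%, 35.4%, 43.2% and 62.9%). The results are those of the single genes.

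NRG1, which encodes neuregulin 1, was at or near 0 counts in sham hearts and rose in IZ at each of the 4 ages. At 3 days of age it had 0.588, 0.826 and 0.397 CPM in IZ (19, 14 and 15 counts), 0.0845, 0.131 and 0.257 CPM in BZ (2, 3 and 7 counts), and 0.0571, 0.0525 and 0 CPM in Sham (1, 1 and 0 counts). At 9 days it had 0.797, 1.15 and 0.434 CPM in IZ (17, 17 and 6 counts), 0.198, 0.498 and 0.287 CPM in BZ (4, 8 and 8 counts), and 0.05, 0 and 0 CPM in Sham (1, 0 and 0 counts). In both Young ages each IZ and BZ library was above each Sham library. At 15 days NRG1 had 3.59, 1.30 and 1.20 CPM in IZ (87, 35 and 31 counts), 1.47, 0.414 and 0.778 CPM in BZ (46, 11 and 25 counts), and 0.0532, 0.208 and 0.115 CPM in Sham (1, 4 and 3 counts). At 21 days it had 3.17, 1.10 and 2.26 CPM in IZ (90, 33 and 90 counts), 1.43, 1.19 and 0.630 CPM in BZ (41, 30 and 17 counts), and 0.0405, 0.0492 and 0 CPM in Sham (1, 1 and 0 counts). The zones and Sham did not overlap at these ages either.

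The NRG1 change in IZ against Sham was 3.75 ± 0.86 at 3 days (edgeR adjusted p = 0.00222), 4.81 ± 0.97 at 9 days (adjusted p = 0.000483), 3.96 ± 0.66 at 15 days (adjusted p = 5.28e-05) and 5.94 ± 0.79 at 21 days (adjusted p = 6.9e-07). These 4 calls held in each fit that left out 1 of the compared libraries. Because the sham groups at 3, 9 and 21 days held 2, 1 and 2 counts in all, the fitted size depends on a prior count. The plain ratio of summed levels of IZ over Sham was 14.1 at 3 days (48 against 2 counts, 95% counting interval 3.70 to 120), 33.7 at 9 days (40 against 1 count, 5.71 to 1364) and 72.0 at 21 days (213 against 2 counts, 19.7 to 598). These intervals cover counting error only. In BZ, NRG1 rose by 3.51 ± 1.06 at 9 days (adjusted p = 0.0262), 2.78 ± 0.66 at 15 days (adjusted p = 0.00368) and 4.94 ± 0.81 at 21 days (adjusted p = 3.42e-05). The 3-day value was 1.90 ± 0.98 (adjusted p = 0.307). The 9-day BZ call rests on few counts: its adjusted p was 0.102 without BZ replicate 2, 0.0511 without BZ replicate 3, 0.0928 without Sham replicate 2, 0.104 without Sham replicate 3, and 0.0614 in limma-voom with the pig as a block. Within the preparation batches of the 9-day hearts, NRG1 was at 0.797 CPM in IZ, 0.287 CPM in BZ and 0 CPM in Sham in batch 1 (1 library each), and averaged 0.792 CPM in IZ, 0.348 CPM in BZ and 0.025 CPM in Sham in batch 2 (2 libraries each).

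The response of NRG1 was not shown to differ with age at surgery: the Old minus Young difference in the IZ response was 0.21 at Early (adjusted p = 0.973) and 1.14 at Late (adjusted p = 0.798), and those in BZ were 0.88 and 1.43 (adjusted p = 0.800 and 0.761). The levels themselves were 2.18 ± 1.03 CPM in Old Late IZ and 0.794 ± 0.358 CPM in Young Late IZ, and 2.03 ± 1.35 CPM in Old Early IZ and 0.604 ± 0.215 CPM in Young Early IZ (SD, n = 3 each). Each of these responses is set against 0 to 4 counts of NRG1 per sham library. The NRG1 model in the table, ENSSSCG00000015839 on chromosome 15 (52630687 to 52839027, minus strand, 16 exon blocks), spans 208.3 kb, which is 19.6% of the span RefSeq gives the gene in Sscrofa11.1, so exons outside it are not in these counts.

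HBEGF, which encodes heparin-binding EGF-like growth factor, was the most abundant of the 3 ligands per kb. It was called higher in both zones of the 9-day, 15-day and 21-day hearts. At 3 days it had 14.6, 15.8 and 9.30 CPM in IZ, 9.76, 8.09 and 7.30 CPM in BZ, and 7.76, 9.93 and 4.47 CPM in Sham. At 9 days it had 18.8, 10.8 and 11.9 CPM in IZ, 7.33, 11.01 and 14.7 CPM in BZ, and 5.15, 1.47 and 4.26 CPM in Sham. The zones overlapped Sham at 3 days and lay above it at 9 days. At 15 days HBEGF had 25.7, 21.2 and 13.1 CPM in IZ, 11.2, 17.1 and 11.9 CPM in BZ, and 4.63, 5.73 and 6.42 CPM in Sham. At 21 days it had 12.4, 9.40 and 9.56 CPM in IZ, 14.6, 14.1 and 11.5 CPM in BZ, and 4.05, 5.46 and 4.70 CPM in Sham. Here too each IZ and BZ library was above each Sham library, and the highest mean of the 12 groups was that of IZ at 15 days (20.0 ± 6.36 CPM, SD, n = 3).

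In IZ, HBEGF rose by 1.88 ± 0.35 at 9 days (adjusted p = 0.000194), 1.84 ± 0.34 at 15 days (adjusted p = 0.000161) and 1.14 ± 0.33 at 21 days (adjusted p = 0.00619). The 3-day value was 0.84 ± 0.33 (adjusted p = 0.0606), and it was called without IZ replicate 3 or without Sham replicate 2 (lowest adjusted p = 0.0375). In BZ it rose by 1.55 ± 0.35 at 9 days (adjusted p = 0.00387), 1.26 ± 0.33 at 15 days (adjusted p = 0.00811) and 1.5 ± 0.34 at 21 days (adjusted p = 0.00107). The 3-day value was 0.18 ± 0.33 (adjusted p = 0.812). The 6 calls of HBEGF held in each fit that left out 1 compared library. A difference between the HBEGF responses was not shown by edgeR. Old minus Young at Early was 1.00 ± 0.47 in IZ and 1.08 ± 0.47 in BZ (adjusted p = 0.178 and 0.221). Late minus Early in Young hearts was 1.05 ± 0.47 in IZ and 1.37 ± 0.48 in BZ (adjusted p = 0.131 and 0.156). Within batches of the 9-day hearts, the difference of IZ over Sham was 3.64 in batch 1 and 1.27 in batch 2, and that of BZ over Sham was 3.29 and 0.93. The batch 1 values rest on Young Late Sham replicate 2, which had the lowest HBEGF level of all 36 libraries (1.47 CPM, 11 counts).

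AREG, which encodes amphiregulin, rose in IZ of the 3-day hearts. It had 0.588, 1.59 and 1.78 CPM there (19, 27 and 67 counts), 0.0845, 0.174 and 0.293 CPM in BZ (2, 4 and 8 counts), and 0, 0.0525 and 0 CPM in Sham (0, 1 and 0 counts). Each IZ library lay above each BZ library, and each BZ library above each Sham library. At this age IZ and BZ libraries did not overlap for 2 of 7 members and 18.9% of all genes. The AREG change in IZ was 5.74 ± 1.04 (adjusted p = 0.000316), and the plain ratio was 66.4 (113 counts against 1, 95% counting interval 11.7 to 2645). In BZ the value was 2.96 ± 1.25 (adjusted p = 0.212).

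At the other ages AREG was not called in either zone. At 9 days it had 0.562, 0.135 and 0.506 CPM in IZ (12, 2 and 7 counts), 0.297, 0.124 and 0.251 CPM in BZ, and 0, 0.533 and 0 CPM in Sham (0, 4 and 0 counts). At 15 days it had 1.44, 0.743 and 0.348 CPM in IZ, 0.575, 0.639 and 0.467 CPM in BZ, and 0.266, 0.364 and 0.153 CPM in Sham. At 21 days it had 0.563, 1.04 and 1.08 CPM in IZ, 1.08, 0.595 and 0.741 CPM in BZ, and 0.243, 0.639 and 0.188 CPM in Sham. IZ and Sham overlapped at all 3 ages, and the IZ values were 1.85 ± 0.96, 1.70 ± 0.71 and 1.33 ± 0.67 at 9, 15 and 21 days (adjusted p = 0.146, 0.0647 and 0.103). Single libraries and settings decide these. The value was called without Young Late Sham replicate 2 (6.31, adjusted p = 0.0048), without Old Early IZ replicate 3 (2.07, adjusted p = 0.0419) and without Old Late Sham replicate 2 (2.02, adjusted p = 0.0454). It was also called by limma-voom with the pig as a block at 9 days (adjusted p = 0.0444), by DESeq2 at 15 days (adjusted p = 0.036) and with the compared groups alone at 21 days (adjusted p = 0.0493). The Old minus Young difference of the Early IZ response was -4.04 ± 1.38 (adjusted p = 0.101), which did not pass the threshold, nor did it in any fit that left out 1 compared library (lowest adjusted p = 0.075).

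**Figure D1:**
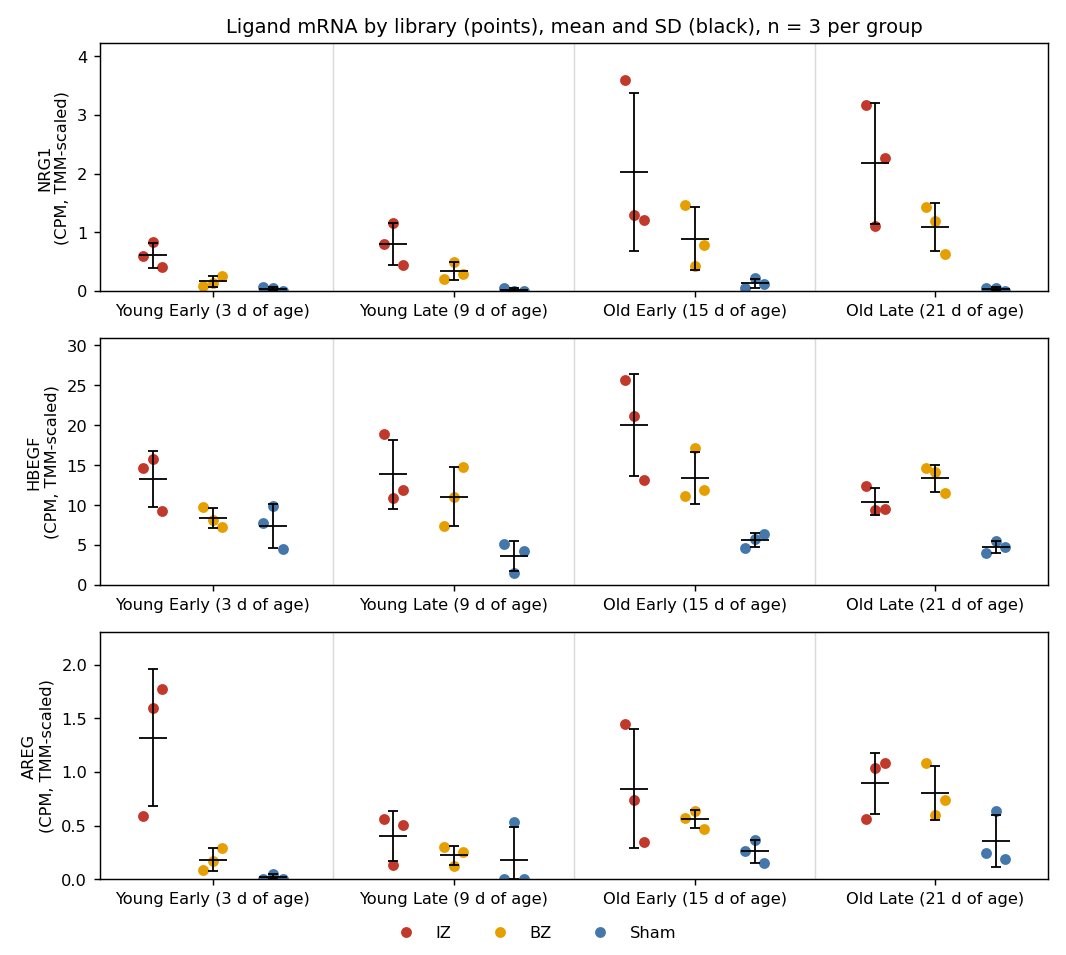
Ligand levels (CPM with TMM scaling, vertical axes from 0) in each library, by age at harvest; within an age, IZ, BZ and Sham run left to right, points are libraries, and black bars are the mean and SD of 3. NRG1 in Sham stays at 0.208 CPM or less, HBEGF in IZ is above Sham from 9 days on, and AREG is highest in IZ at 3 days.

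Among the receptors, ERBB2 fell in IZ of both Late groups. At 3 days ERBB2 had 63.8, 60.9 and 51.6 CPM in IZ, 67.5, 79.0 and 48.5 CPM in BZ, and 97.2, 65.2 and 86.3 CPM in Sham. At 9 days it had 45.9, 52.0 and 45.4 CPM in IZ, 66.2, 52.9 and 56.4 CPM in BZ, and 85.8, 92.9 and 78.7 CPM in Sham. IZ was below Sham in every library of both ages, and BZ was below Sham at 9 days. At 15 days ERBB2 had 42.2, 48.4 and 32.4 CPM in IZ, 61.3, 47.9 and 31.5 CPM in BZ, and 53.0, 56.9 and 53.4 CPM in Sham. At 21 days it had 42.7, 30.9 and 30.7 CPM in IZ, 42.2, 55.6 and 47.4 CPM in BZ, and 63.7, 63.4 and 70.4 CPM in Sham. IZ lay below Sham at these ages as well, and BZ overlapped Sham at 15 days.

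ERBB2 fell by 0.84 ± 0.21 in IZ at 9 days (log2, adjusted p = 0.00268) and by 0.92 ± 0.21 at 21 days (adjusted p = 0.00054), and both calls held without any 1 compared library. The values at 3 and 15 days were -0.50 ± 0.20 and -0.41 ± 0.20 (adjusted p = 0.0703 and 0.124). The 3-day value was called without Sham replicate 2 (-0.64, adjusted p = 0.0385) and by DESeq2. A difference of the IZ response between Late and Early was not shown. It was -0.35 ± 0.29 in Young and -0.51 ± 0.29 in Old hearts (edgeR adjusted p = 0.417 and 0.384). In BZ the values at 9 and 21 days were -0.55 ± 0.20 and -0.44 ± 0.20 (adjusted p = 0.0674 and 0.0857). The 9-day value was called under 3 of 8 other settings. Within batches of the 9-day hearts, IZ minus Sham was -1.02 in batch 1 and -0.76 in batch 2. The summed cardiomyocyte markers given above were also lower in IZ than in Sham. Of the 11 markers, 9, 6, 9 and 10 fell at 3, 9, 15 and 21 days, against 11.6%, 13.1%, 14% and 23.2% of all genes. Their part in the fall of ERBB2 was not tested, and in tissue RNA fewer cells of a type and less RNA per cell cannot be told apart.

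ERBB3, which needs a partner with an active kinase, was called in 0 of the 24 comparisons by edgeR, with an unadjusted p under 0.05 in 4 of them. Its libraries ranged between 2.91 and 11.6 CPM, and group means between 4.99 ± 1.97 CPM (Young Late IZ) and 10.1 ± 1.32 CPM (Old Late Sham; SD, n = 3 each). Its largest value in sham hearts was 0.95 ± 0.27 in Old Late over Old Early (adjusted p = 0.216; 11.6, 9.39 and 9.30 CPM in Old Late, 5.96, 4.11 and 5.66 CPM in Old Early), where 0.0275% of all genes were called. DESeq2 called it (adjusted p = 0.0428), and so did an edgeR fit of the compared groups alone (adjusted p = 0.0247). ERBB3 (ENSSSCG00000020725, chromosome 5, 21474625 to 21496279, plus strand) shares 255 exon bases with an unnamed gene on the same strand that has 121582 counts, so part of its reads is uncertain.

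ERBB4, the receptor through which neuregulin acts on cardiomyocytes, had low counts and fell in both zones of the 21-day hearts. There it had 0.528, 1.51 and 0.552 CPM in IZ (15, 45 and 22 counts), 0.489, 1.03 and 0.667 CPM in BZ (14, 26 and 18 counts), and 7.69, 2.21 and 1.17 CPM in Sham (190, 45 and 25 counts). Sham replicate 1 was more than 3 times the next Sham library, and BZ but not IZ lay wholly below Sham. The change was -2.11 ± 0.63 in IZ (adjusted p = 0.00704) and -2.34 ± 0.64 in BZ (adjusted p = 0.00547). Without Sham replicate 1 the values were -0.98 in IZ (adjusted p = 0.217) and -1.21 in BZ (adjusted p = 0.146). The IZ call also ended without IZ replicate 1 (-1.77, adjusted p = 0.0507) or IZ replicate 3 (-1.79, adjusted p = 0.0514), and the BZ call ended with the RNA integrity number as a covariate (-1.93, adjusted p = 0.0632). The integrity number was 6.8 to 7.8 in BZ and 7.8 to 8.4 in Sham at this age.

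At the other ages ERBB4 was lower in IZ than in Sham without overlap, with the 9-day groups meeting at the printed precision, but was not called. It had 1.02, 0.885 and 0.662 CPM in IZ and 1.31, 1.63 and 1.44 CPM in Sham at 3 days, 0.375, 0.947 and 1.30 CPM in IZ and 1.65, 1.87 and 1.30 CPM in Sham at 9 days, and 0.577, 1.04 and 0.193 CPM in IZ and 2.02, 1.25 and 2.14 CPM in Sham at 15 days. The values were -0.77 ± 0.64, -0.90 ± 0.68 and -1.57 ± 0.65 (adjusted p = 0.385, 0.332 and 0.0624). The 15-day value was called under 3 of 8 other settings (lowest adjusted p = 0.0405) and without IZ replicate 2 (-2.22, adjusted p = 0.0262). In BZ the values at 3, 9 and 15 days were -0.80 ± 0.65, -0.80 ± 0.66 and -1.27 ± 0.63 (adjusted p = 0.536, 0.442 and 0.155). No overlap between IZ and Sham was common among all genes, 46.2% at 3 days, 47.8% at 9 days and 53.3% at 15 days. The ERBB4 model (ENSSSCG00000016160, chromosome 15, 113974697 to 114696336, minus strand) covers 63.8% of the RefSeq span.

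EGFR, the receptor of HBEGF and AREG, moved in opposite directions in the Late infarcts of the 2 ages at surgery. In Old Late hearts it had 4.89, 8.40 and 7.51 CPM in IZ, 3.80, 3.21 and 3.08 CPM in BZ, and 3.16, 2.95 and 4.32 CPM in Sham. In Young Late hearts it had 1.78, 1.62 and 1.30 CPM in IZ, 1.24, 1.06 and 0.970 CPM in BZ, and 3.35, 5.73 and 3.09 CPM in Sham. In Old Late hearts IZ lay above BZ and Sham, while in Young Late hearts both zones lay below Sham.

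EGFR rose by 1.00 ± 0.31 in Old Late IZ (adjusted p = 0.00986), fell by 1.34 ± 0.34 in Young Late IZ (adjusted p = 0.00342) and fell by 1.87 ± 0.34 in Young Late BZ (adjusted p = 0.000793). The Old Late BZ value was -0.05 ± 0.31 (adjusted p = 0.920). The 3 calls held in each fit that left out 1 compared library. The Old minus Young difference of the Late response was 2.33 ± 0.46 in IZ (adjusted p = 0.00923). In this comparison 1 of 7 members and 3.53% of all genes were called. It kept its call in all 12 fits that left out 1 of the compared libraries (2.02 to 2.66) and under all 8 other settings (2.21 to 2.47). In BZ the difference was 1.83 ± 0.46 (adjusted p = 0.0487; 1 of 7 members, 0.977% of all genes). This call held in 3 of 12 such fits and under 3 of 8 other settings, with adjusted p up to 0.202, reached without Old Late BZ replicate 1. It also ended without Young Late BZ replicate 1 or 3, Old Late BZ replicate 2 or 3, any 1 of the Old Late Sham libraries, or Young Late Sham replicate 2 (1.52 to 2.01 over all 12).

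EGFR in Late sham hearts averaged 3.48 ± 0.738 CPM in Old and 4.06 ± 1.46 CPM in Young (SD, n = 3 each; difference -0.20 ± 0.32, adjusted p = 0.705). Within batches of the Young Late hearts, EGFR in IZ minus Sham was -1.66 in batch 1 and -1.12 in batch 2, and in BZ minus Sham -2.51 and -1.46. The Old Late hearts were all of batch 3. The markers of other cells also differed between the Late infarcts: the 10 fibroblast markers summed to 17240 to 21150 CPM in Old Late IZ and 4798 to 8024 CPM in Young Late IZ, against 1308 to 1621 CPM in Old Late Sham and 740 to 1355 CPM in Young Late Sham. The 9 markers of dividing cells in the table summed to 159 to 218 CPM in Old Late IZ and 329 to 426 CPM in Young Late IZ. None of either list was at 0 in these groups, and their part in the EGFR difference was not tested.

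At 1 day after surgery EGFR was not called in either zone at either age. Old Early hearts had 2.52, 3.38 and 2.51 CPM in IZ, 2.14, 2.56 and 3.48 CPM in BZ, and 3.14, 1.56 and 1.30 CPM in Sham. Young Early hearts had 3.40, 1.83 and 2.78 CPM in IZ, 2.58, 1.43 and 1.98 CPM in BZ, and 2.00, 1.47 and 2.20 CPM in Sham. The groups overlapped, and IZ against Sham gave 0.50 ± 0.32 in Old Early (adjusted p = 0.241) and 0.51 ± 0.32 in Young Early (adjusted p = 0.243). The Old Early value was called without Sham replicate 1 (0.97, adjusted p = 0.0359). The Late minus Early difference of the IZ response was -1.85 ± 0.47 in Young hearts (adjusted p = 0.0131), where 1 of 7 members and 12.4% of all genes were called, and 0.50 ± 0.45 in Old hearts (adjusted p = 0.647; 0 of 7 members and 4.01% of all genes). The Young difference lost its call without Young Late Sham replicate 2 (-1.54, adjusted p = 0.0536) and with RNA integrity as a covariate (-1.56, adjusted p = 0.0572). In Young BZ the difference was -1.96 ± 0.47 (adjusted p = 0.0592), where 0 of 7 members and 0.234% of all genes were called. DESeq2 called this difference. It was also called without Young Early BZ replicate 2, the library that stood apart (-2.14, adjusted p = 0.0115), or without Young Late Sham replicate 1 (-2.07, adjusted p = 0.0219).

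**Figure D2:**
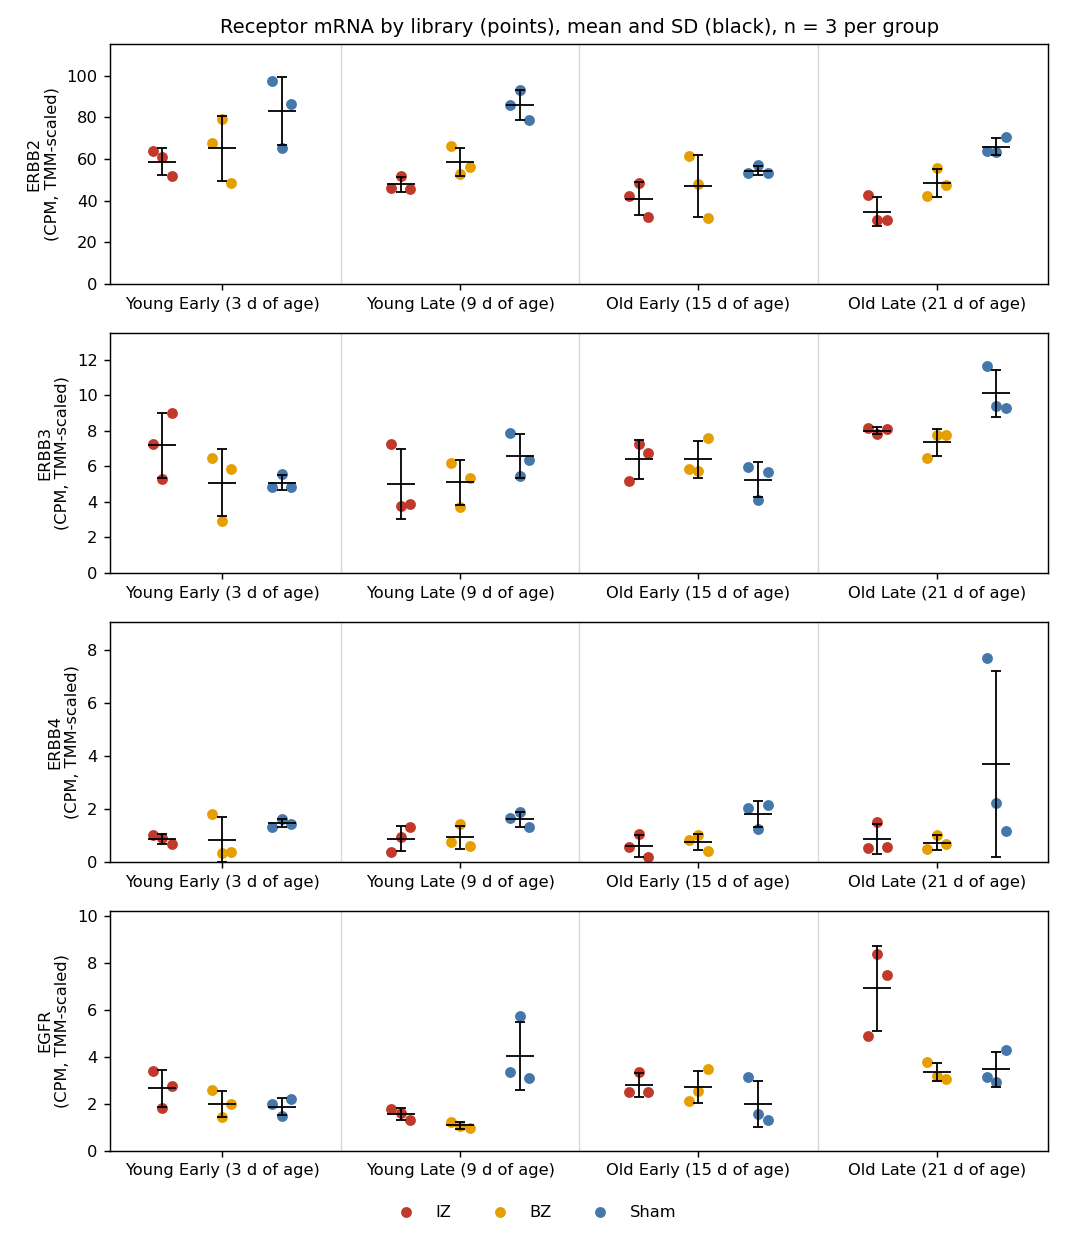
Receptor levels (CPM with TMM scaling, vertical axes from 0) in each library, by age at harvest; within an age, IZ, BZ and Sham run left to right, points are libraries, and black bars are the mean and SD of 3. ERBB2 in IZ is below Sham at each age, 1 Old Late Sham library carries the ERBB4 mean, and EGFR in IZ is above Sham in Old Late (4.89 to 8.40 CPM) and below it in Young Late (1.30 to 1.78 CPM).

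**Figure D3:**
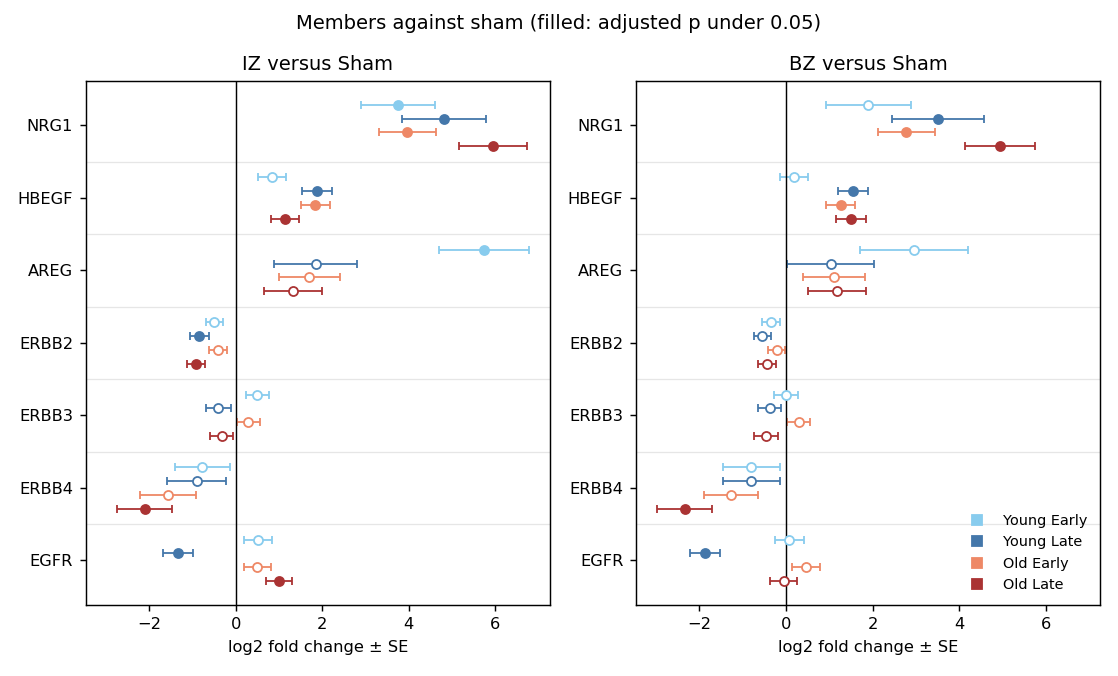
Log2 fold change ± SE (horizontal axis) of each gene in IZ over Sham (left) and BZ over Sham (right), 4 ages per gene in colour; filled points have an adjusted p under 0.05. NRG1 and HBEGF lie right of 0, ERBB2 and ERBB4 left of it, and EGFR on both sides.

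In the remaining comparisons between responses, 0 of 7 members were called: in the Early responses Old minus Young (0.0344% of all genes in IZ and 0.199% in BZ) and in Old BZ Late minus Early (1.09%). Over the 28 tests of Old minus Young, 5 had an unadjusted p under 0.05 in edgeR and 2 were called, with 2 called by DESeq2 and 1 by limma-voom.

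Sham hearts of different ages were also compared with each other. Late and Early shams differ both in age and in days since sham surgery, and these cannot be told apart here. Old Early against Young Early shams had 2 of 7 members called (30.2% of all genes), Old Late against Young Late 0 (10.4%), Young Late against Young Early 1 (9.18%) and Old Late against Old Early 0 (0.0275%). ERBB2 was lower in Old Early shams (54.4 ± 2.13 CPM) than in Young Early shams (82.9 ± 16.3 CPM; -0.61 ± 0.20, adjusted p = 0.0276). AREG was higher in Old Early shams (5, 7 and 4 counts) than in Young Early shams (0, 1 and 0 counts; 3.40 ± 1.22, adjusted p = 0.0368; plain ratio 12.7, 95% counting interval 1.98 to 534). EGFR was higher in Young Late shams (4.06 ± 1.46 CPM) than in Young Early shams (1.89 ± 0.377 CPM; 1.08 ± 0.33, adjusted p = 0.0395).

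Each of the 3 sham calls ended in most fits that left out 1 library, and with RNA integrity as a covariate. The ERBB2 call also ended with a batch term (-0.60, adjusted p = 0.134), and the EGFR call with no count filter, with the compared groups alone and in limma-voom (adjusted p = 0.0659, 0.0708 and 0.0926). The ERBB2 call ended without any 1 of the compared libraries other than Young Early Sham replicate 2, and so did that of AREG. Over all 6 such fits the values were -0.75 to -0.48 for ERBB2 (adjusted p up to 0.134) and 2.91 to 5.62 for AREG (adjusted p up to 0.125). The EGFR call ended without any 1 of the Young Early shams or without Young Late Sham replicate 2 (0.77 to 1.24 over all 6 fits, adjusted p up to 0.225). With RNA integrity as a covariate the adjusted p was 0.116 for ERBB2, 0.0805 for AREG and 0.106 for EGFR. The RNA integrity number was 7.1 to 7.6 in Old Early shams, 6.6 to 7.6 in Young Late shams and 6.4 to 6.9 in Young Early shams. Its part was not tested further. Old Early and Young Early shams were also prepared in different batches. Young Late shams had 1 library in batch 1 and 2 in batch 2, and Old Late shams were all of batch 3, so the other sham comparisons cross batches too.

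IZ and BZ of the same pig were compared with the pig as a block, over 14386 genes. In Young Late pair 1, IZ was prepared in batch 1 and BZ in batch 2, and in pair 3 the reverse. Zone and batch cannot be told apart within these pigs. NRG1 was higher in IZ than in BZ in 12 of 12 pigs, which 0.883% of all genes were, and EGFR in 11 of 12 pigs. AREG and ERBB3 were higher in IZ in 9 of 12, HBEGF in 7 and ERBB4 in 6, while ERBB2 was lower in IZ in 9 of 12. The share over all genes was worked out for 12 of 12 pigs alone, so the lower counts are only a description. At 3 days of age 2 of 7 members were called (10.2% of all genes), both higher in IZ: AREG rose by 2.80 ± 0.41 (adjusted p = 0.0083) and NRG1 by 1.82 ± 0.49 (adjusted p = 0.0375). The AREG call held without any 1 compared library (adjusted p up to 0.0423) and ended in a fit of these 2 groups alone (adjusted p = 0.222). The NRG1 call ended without pig pairs 1 or 2 (1.46 to 1.5, adjusted p up to 0.182), without the pig as a block (1.85, adjusted p = 0.130) and with the compared groups alone (adjusted p = 0.299). It also ended with RNA integrity as a covariate (adjusted p = 0.0626) and with the other pig label for Old Late BZ replicate 3 (adjusted p = 0.0568).

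At the other ages 0 of 7 members were called between IZ and BZ by edgeR, against 1.27% of all genes at 21 days and 0% at 9 and at 15 days, where DESeq2 called 79 and 5 genes. NRG1 was 1.24 ± 0.47, 1.15 ± 0.36 and 0.94 ± 0.35 higher in IZ at 9, 15 and 21 days (adjusted p = 0.422, 0.823 and 0.172). EGFR at 21 days was 0.99 ± 0.23 higher in IZ, with each IZ library above each BZ library (adjusted p = 0.0514), and it was called in a fit of these 2 groups alone (adjusted p = 0.0211) and by DESeq2 (adjusted p = 0.00422). At this age IZ and BZ libraries did not overlap for 2 of 7 members and 17.7% of all genes. ERBB2 at 21 days had a value of -0.51 ± 0.16 in IZ over BZ (adjusted p = 0.0977), and it too was called in the fit of these 2 groups alone (adjusted p = 0.0436). Over the 28 tests of IZ against BZ, 9 had an unadjusted p under 0.05, 2 were called by edgeR and 3 by DESeq2.

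**Figure D4:**
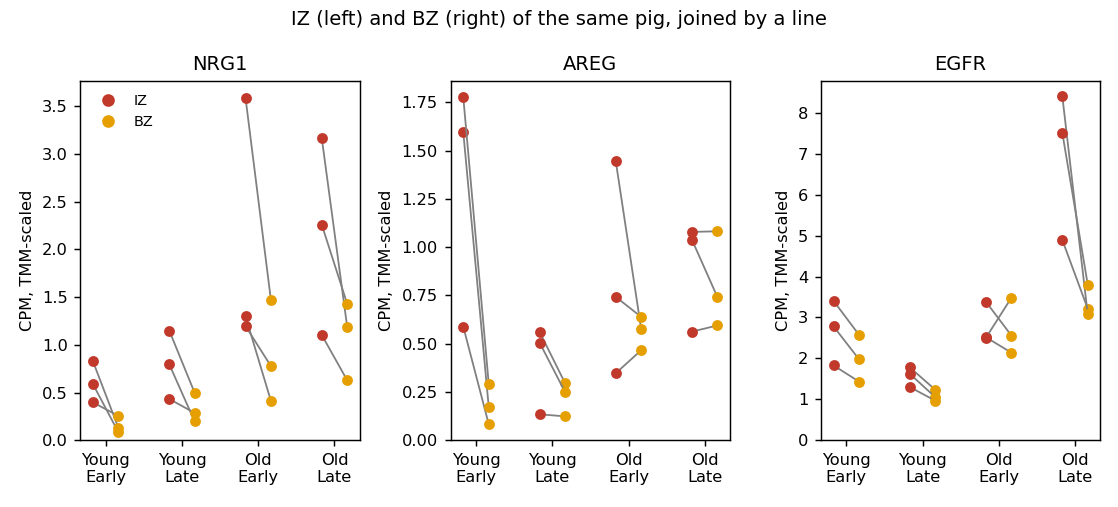
Levels (CPM with TMM scaling, vertical axes from 0) of NRG1, AREG and EGFR in IZ (left point) and BZ (right point) of the same pig, joined by a line, 3 pigs per age. NRG1 is higher in IZ in all 12 pigs, AREG differs most in Young Early and EGFR most in Old Late.

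Of 8 other ligands of these receptors, 6 were found by symbol and all were scarce. NRG2 had 23 counts in all 36 libraries, TGFA 22, BTC 68 and NRG3 0, and these 4 did not pass the filter. EGF had 207 counts and EREG, which encodes epiregulin, 328. EREG rose in Young Early IZ by 2.71 ± 0.96 (adjusted p = 0.0365), with 0.783 ± 0.704 CPM in IZ and 0.124 ± 0.0774 CPM in Sham (SD, n = 3 each). This call held in 2 of 6 fits that left out 1 library and ended without Young Early IZ replicate 3 (1.66, adjusted p = 0.294) or any 1 Sham library (adjusted p up to 0.127). It also ended with RNA integrity as a covariate (adjusted p = 0.176) and in limma-voom with the pig as a block (adjusted p = 0.0726). EGF was not called in IZ or BZ against Sham at any age.

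Of 8 genes for shedding of ligands from the cell surface, 2, 3, 4 and 5 rose in IZ at 3, 9, 15 and 21 days of age and 0 fell, with a median of 0.54, 0.14, 0.47 and 0.50 against 0.08, 0.03, 0 and -0.04 over all genes. Of all genes, 14.8%, 17.3%, 18.9% and 24.3% rose in IZ at these ages and 11.6%, 13.1%, 14% and 23.2% fell. ADAM12, a metalloprotease that can cleave HBEGF, rose at each age, by 2.58 ± 0.55, 4.83 ± 0.64, 4.03 ± 0.58 and 6.62 ± 0.65 (highest adjusted p = 0.00125). At 21 days it averaged 106 ± 8.73 CPM in IZ, 62.1 ± 49.7 CPM in BZ and 1.08 ± 0.39 CPM in Sham. ADAM17, the main sheddase of HBEGF, AREG and NRG1, rose by 0.54 ± 0.13, 0.53 ± 0.13 and 0.44 ± 0.13 in IZ at 3, 15 and 21 days (highest adjusted p = 0.00732) and was not called at 9 days (0.12 ± 0.13, adjusted p = 0.527). In BZ, 0, 1, 3 and 4 of the 8 rose at 3, 9, 15 and 21 days and 1 fell, at 21 days, against 0.647%, 8.66%, 13.5% and 19.5% of all genes that rose in BZ and 0.248%, 6.03%, 7.73% and 18.7% that fell. ADAM12 was among those that rose at the 3 later ages (3.75 ± 0.62, 3.33 ± 0.57 and 5.85 ± 0.63).

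Of 11 tested genes that inhibit or turn over ERBB receptors, 3 rose and 0 fell in IZ at 3 days, 0 rose and 3 fell at 9 days, 1 rose and 0 fell at 15 days, and 1 rose and 4 fell at 21 days. Of all genes, 14.8%, 17.3%, 18.9% and 24.3% rose in IZ at 3, 9, 15 and 21 days and 11.6%, 13.1%, 14% and 23.2% fell. ERRFI1, an inhibitor induced by EGFR signalling, rose by 1.78 ± 0.39 at 3 days and 1.67 ± 0.38 at 15 days (adjusted p = 0.00161 and 0.00145) and was not called at 9 and 21 days (-0.08 ± 0.39 and 0.38 ± 0.38). LRIG1, which promotes receptor degradation, fell by 2.14 ± 0.62 at 9 days and by 2.51 ± 0.62 at 21 days (adjusted p = 0.00955 and 0.00139). It averaged 12.7 ± 2.66 CPM in IZ and 55.7 ± 17.7 CPM in Sham at 9 days, and 23.7 ± 13.4 CPM in IZ and 135 ± 11.5 CPM in Sham at 21 days. LRIG3, a relative of LRIG1, rose by 2.41 ± 0.48 at 21 days (adjusted p = 0.000146), so that members of this list moved both ways. These calls held in each fit that left out 1 compared library.

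Of 22 tested adaptors and trunk kinases, 6 rose and 1 fell in IZ at 3 days, 3 rose and 4 fell at 9 days, 5 rose and 2 fell at 15 days, and 7 rose and 5 fell at 21 days. Of all genes, 14.8%, 17.3%, 18.9% and 24.3% rose in IZ at these ages and 11.6%, 13.1%, 14% and 23.2% fell, and the list counts are a description. GAB1, a docking protein downstream of ERBB receptors, fell by 2.20 ± 0.59 at 9 days and by 1.97 ± 0.57 at 21 days (adjusted p = 0.00603 and 0.00541); the 21-day call ended without Old Late IZ replicate 1 (-1.59, adjusted p = 0.0513). MAP2K1, which encodes the kinase MEK1, rose by 1.83 ± 0.33 at 3 days (adjusted p = 0.000261). Of 9 tested genes used as readouts of ERK activity, 1, 2, 5 and 3 rose in IZ at 3, 9, 15 and 21 days and 0, 1, 0 and 0 fell. The shares of all genes given with the adaptors apply here too. The readout list had a median of 0.56, 0.14, 0.88 and 0.26 at these ages, beside the medians over all genes given above. ETV4, a transcription factor, rose by 2.32 ± 0.48, 3.25 ± 0.48 and 2.67 ± 0.47 at 9, 15 and 21 days (highest adjusted p = 0.000551), and DUSP6, an ERK phosphatase, rose by 1.39 ± 0.25 and 1.26 ± 0.25 at 15 and 21 days (adjusted p = 0.000143 and 0.000151). DUSP6 was also called at 9 days (0.67 ± 0.26, adjusted p = 0.0471), but that call held in 1 of 6 fits that left out 1 compared library, with only Young Late IZ replicate 2 left out (adjusted p up to 0.229 in the others), and under 1 of 8 other settings. In BZ at 3 days 0 genes of these lists were called, against 0.894% of all genes.

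The ages at which the ligands were high also differed in markers of other cells, whose part in the ligand changes was not tested. The 12 macrophage markers summed to 231 to 291, 782 to 1034, 319 to 845 and 833 to 1137 CPM in IZ at 3, 9, 15 and 21 days, against 163 to 245, 82.2 to 92.9, 175 to 242 and 134 to 196 CPM in Sham. Of these markers 4, 12, 8 and 11 rose. Of all genes, 14.8%, 17.3%, 18.9% and 24.3% rose in IZ at these ages and 11.6%, 13.1%, 14% and 23.2% fell. The 4 neutrophil markers found summed to 19.8 to 28.3, 4.99 to 14.9, 33.9 to 292 and 11.9 to 21.3 CPM in IZ, against at most 0.958 CPM in any Sham library. MMP8 was at 0 in IZ at 3, 9 and 21 days, and 3, 2, 4 and 3 of the markers rose. The 10 endothelial markers found, of the cells that make neuregulin in the uninjured heart, summed to 908 to 1219, 499 to 548, 989 to 2079 and 559 to 641 CPM in IZ, against 804 to 878, 513 to 693, 560 to 591 and 516 to 589 CPM in Sham. Of these 1, 0, 7 and 1 rose while 0, 5, 0 and 4 fell. The 7 Schwann cell markers found summed to 9.56 to 10.5, 11.6 to 21.6, 7.91 to 15.1 and 15.2 to 30.1 CPM in IZ, against 8.73 to 12.8, 8.24 to 14.3, 5.41 to 9.44 and 6.86 to 10.3 CPM in Sham, so that IZ and Sham overlapped at the first 3 ages and not at 21 days.

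The 7 markers of smooth muscle and pericytes summed to 912 to 1197, 1696 to 2337, 1299 to 2252 and 1944 to 3005 CPM in IZ at 3, 9, 15 and 21 days, against 778 to 905, 461 to 665, 606 to 729 and 388 to 445 CPM in Sham. Of these 1, 5, 5 and 6 rose, and 1 fell, at 3 days. The shares of all genes that rose and fell in IZ are those given with the macrophage markers. The 5 markers of epithelium and mesothelium found summed to 247 to 405, 173 to 317, 57.8 to 268 and 83.8 to 172 CPM in IZ, against 62.9 to 165, 32.9 to 74.6, 25.1 to 49 and 25.2 to 50.5 CPM in Sham. IZ lay above Sham at each age, EPCAM was at 0 in IZ at 3 days, and 1, 3, 2 and 3 of the 4 markers tested rose. The 9 lymphocyte markers found summed to 58.3 to 73.2, 46.4 to 53.11, 53.0 to 91.8 and 48.9 to 78.7 CPM in IZ at 3, 9, 15 and 21 days. The Sham sums were 57.4 to 75.8, 53.13 to 63.6, 37.4 to 45.7 and 33.3 to 49.3 CPM. IZ thus lay below Sham at 9 days and above it at 15 days, and overlapped it at 3 and 21 days. Of these markers 0, 2, 2 and 6 rose. The part of these cells in the ligand changes was not tested either.

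The genes whose 12 group means followed each member most closely were found among 12164 tested genes with a symbol, by the root mean square difference of centred mean log2 CPM. For NRG1, whose own means had a root mean square of 1.78, these included TYROBP (0.40) and TLR2 (0.40). TYROBP is one of the 12 macrophage markers above. The sum of these markers overlapped between IZ (231.3 to 290.6 CPM) and Sham (163.4 to 244.6 CPM) in Young Early hearts. At the other ages IZ lay above Sham. In Young Early hearts the mean sum was 269.7 CPM in IZ and 282 CPM in BZ. That BZ mean rests on replicate 2, the library that stood apart (439.3 CPM, against 290.6 CPM in IZ of the same pig). In pigs 1 and 3 of this group IZ was higher than BZ (231.3 against 210.2 and 287.2 against 196.6 CPM). In Old Early hearts the mean sum was lower in IZ than BZ (539.2 against 679.5 CPM). It was higher in IZ in Young Late (896.2 against 406.9 CPM) and Old Late hearts (1023 against 727.5 CPM). NRG1 was higher in IZ in 12 of 12 pigs. The mean of TYROBP was also higher in IZ than BZ at each age. At 3, 9, 15 and 21 days it was 18.56 against 12.71, 55.84 against 22.01, 67.72 against 43.34 and 80.48 against 54.02 CPM. So was that of TLR2 (9.232 against 4.958, 15.31 against 6.535, 22.18 against 18.92 and 38.79 against 18.43 CPM). The part of macrophages was not tested. For HBEGF (0.72) the closest genes were LOXL2 (0.22), REXO2 (0.23) and SDCBP2 (0.25), and for AREG (1.28) ABCC3 (0.46), ADGRG6 (0.46) and RGS8 (0.52). For ERBB2 (0.37) they were NEURL4, MUS81 and RPAP1 (0.11 each), and for ERBB3 (0.32) KATNIP (0.12), MTMR4 (0.17) and COG6 (0.17). For ERBB4 (0.67) they were EPM2AIP1 (0.23), TRPM7 (0.27) and NPNT (0.28), and for EGFR (0.65) EVA1A (0.29), ZBTB8A (0.31) and IFNLR1 (0.31). These are descriptions over 12 groups that share libraries and scaling.

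The other members lie on chromosome 12 (ERBB2, ENSSSCG00000017497, 22591621 to 22621332, minus strand), chromosome 9 (EGFR, ENSSSCG00000022126, 139301586 to 139475037, plus strand), chromosome 2 (HBEGF, ENSSSCG00000014362, 142102458 to 142115196, minus strand) and chromosome 8 (AREG, ENSSSCG00000008963, 70417919 to 70429494, plus strand), in the coordinates of the count table. Their models span 99.8% to 113.8% of the RefSeq genes.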

How the data were processed

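PolyA RNA of 36 left ventricular samples was made into stranded libraries and read as 76 bp pairs, per the labels' protocols. Per the submitters' processing notes, bcl2fastq, Trimmomatic, STAR and featureCounts of Subread 1.5.1 were used. The deposited table holds whole-number counts for each gene, not normalized by the authors. The genome build and strand setting are not given in the sources used here; 98.7% of 13707 named genes overlap the same gene of RefSeq Sscrofa11.1, from which symbols and spans came. A symbol was found for 14857 of 25880 identifiers.

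Genes were filtered with filterByExpr (minimum count 10, minimum total 15), scaled with TMM and fitted with edgeR 4.0.16 in R 4.3.3 (robust quasi-likelihood, 1 mean per group, 24 residual degrees of freedom). Each SE is the log2 fold change divided by the square root of its F statistic. This fit does not know which IZ and BZ libraries share a pig. IZ against BZ was fitted on the 24 IZ and BZ libraries, with a block for the pig named in the sample titles (8 residual degrees of freedom); another label gives a different pig for Old Late BZ replicate 3. The 24 comparisons were each adjusted over all genes tested. Replicates are separate pigs. The fits were tested on simulated counts that held no pig effect, so the use of the pig as a block was not tested. Changes were planted only in genes above 1 CPM on average. NRG1 and AREG (0.689 and 0.504 CPM over all 36 libraries) lie below that level.

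Alternatives were DESeq2 1.42.0 size factors or test, no count filter, compared groups alone, a batch term, a covariate for RNA integrity, limma-voom (limma 3.58.1) with the pig as a random block, mitochondrial genes left out, no block, the other pig label, and each of 36 libraries left out. The text names all 7 members; of genes in pathway lists the rule takes the 3 largest rises and falls called per comparison at a mean log2 CPM of 0 or more, a panel of 11 genes and the 3 genes most like each member, of which a part is printed; 1 of the genes most like NRG1 is not reported here. The members and lists were chosen with earlier results of these data known. Counts limit the precision of NRG1, AREG and ERBB4 most, with 669, 477 and 1001 counts in all 36 libraries, against 46139 for ERBB2.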

Additional observations from a re-analysis of the deposited data

Results flagged for a closer look

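The response of EGFR to infarction differed between groups in 3 tests. The Late IZ response was 2.33 higher on the log2 scale in Old than in Young hearts, and the Late BZ response was 1.83 higher in Old than in Young hearts. The Young IZ response was -1.85 at Late minus Early. The Late IZ difference kept its call in all 12 fits that left out 1 compared library, the Late BZ difference in 3 of 12 and the Young IZ difference in 11 of 12. With 3 libraries per group no group was tested for single outlying samples.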

How the results depend on the processing

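The count of members called in IZ against Sham (13 of 28 tests) and in BZ against Sham (8 of 28) stayed within 1.5 times under each setting and each left-out library. In IZ against BZ the count was 2, and it was 1 with RNA integrity as a covariate, without the replicate block and with the other pig label for Old Late BZ replicate 3, and 1 to 3 over the left-out libraries. The pig pairing comes from the labels. For Old minus Young the count of 2 was 1 with no count filter, with the compared groups alone, with a batch term, with RNA integrity and in limma-voom with the pig as random replicate block, and 1 to 2 over the left-out libraries. For Late minus Early the count of 1 was 2 in DESeq2, 0 with RNA integrity and 0 to 3 over the left-out libraries. For sham hearts by age the count of 3 was 5 in DESeq2, 0 with RNA integrity and 0 to 4 over the left-out libraries.

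Leaving out single libraries reversed 3 uncalled values. AREG in the Young IZ response Late minus Early was -6.11 to 0.57, and EGFR in Old Late over Young Late Sham was -0.38 to 0.11, with the sign turned without Young Late Sham replicate 2, the shallowest library. HBEGF in Young Early BZ was -0.08 to 0.45, with the sign turned without Young Early Sham replicate 3. Under other settings 451 values of members kept their direction and side of the threshold, 20 lost a call and 17 gained one. Of 320 counts of pathway list calls, 291 stayed within 1.5 times. With the compared groups alone, where they failed the filter, NRG1 could not be fitted in Young Late IZ, Young Late BZ and Young Early BZ against Sham and in Young Late IZ against BZ, nor AREG in Young Late IZ, Old Early IZ and Young Early BZ against Sham and in Old Early over Young Early Sham.

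Counts over all genes moved more. Between the settings other than left-out libraries, Young Early BZ against Sham had 130 called genes (0 to 557), Young Late BZ 2135 (1372 to 2692) and Old Late BZ 5558 (3423 to 7254). IZ against BZ had 1469 at Young Early (0 to 2570) and 183 at Old Late (0 to 1720). Old minus Young had 5 in Early IZ (0 to 1302), 29 in Early BZ (0 to 591), 513 in Late IZ (277 to 1051) and 142 in Late BZ (4 to 596). Late minus Early had 1807 in Young IZ (609 to 2993), 583 in Old IZ (478 to 955), 34 in Young BZ (1 to 382) and 158 in Old BZ (67 to 390). Shams had 4391 for Old over Young at Early (1336 to 6587), 1518 at Late (108 to 2199), 1335 for Late over Early in Young (584 to 2051) and 4 in Old (0 to 920). The causes of these shifts were not tested.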
